A study of Homo sapiens with 6 samples.

Results

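Oxidative phosphorylation genes were taken from the arrays by their symbols: every probe set listed for a single gene named NDUFA, NDUFB, NDUFC, NDUFS, NDUFV, SDHA to SDHD, UQCR, COX4 to COX8 or ATP5, together with CYC1 and CYCS, with the NDUFAF assembly factors left out. The rule found 72 genes read by 106 probe sets, out of 11963 genes and 22215 probe sets measured. For each gene the probe set with the highest mean over all 6 arrays was used. By textbook assignment, 67 of the 72 are subunits or cytochrome c: 28 belong to complex I, 3 to complex II, 7 to complex III, 13 to complex IV and 15 to ATP synthase, and 1 is cytochrome c itself. The remaining 5, which the symbol rule also takes in, are the ATP synthase inhibitor ATP5IF1, the complex II assembly factors SDHAF1 and SDHAF3, the pseudogene ATP5MC2P1 and the antisense RNA NDUFB2-AS1.

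The arrays came from HCT116, an established human colon cancer cell line, kept in serum-containing medium. The lentiviral vector FUGW gave the cells stable expression of either a short hairpin RNA (shRNA) against NFX1-91, a splice form of the zinc finger protein NFX1, or a control hairpin against β-galactosidase. Both groups thus carry a lentivirus and a hairpin, and each has 3 arrays. Whether replicate arrays stand for separate cultures or clones is not in the labels, so each p-value covers only the spread among the 6 arrays, and that spread may be technical. In bulk RNA, fewer cells with a transcript and less of it per cell cannot be told apart.

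Oxidative phosphorylation takes place in the inner mitochondrial membrane. Complexes I and II pass electrons from NADH and succinate to ubiquinone, complex III hands them to cytochrome c, and complex IV hands them to oxygen. Complexes I, III and IV pump protons as they do so, and ATP synthase uses the returning protons to make ATP. A few subunits of these machines are encoded in mitochondrial DNA. The genes described here are in the nucleus, and their proteins are imported and built in with the help of assembly factors.

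Values are scaled signals, in which the mean of each array is 500, and log2 fold changes are NFX1-91 shRNA minus control shRNA on the log2(signal + 16) scale. This scale understates the change of dim genes. A gene was called where limma's moderated test across all genes gave a Benjamini-Hochberg adjusted p under 0.05.

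Arrays of the same group correlated at 0.992 to 0.995 (Pearson), and arrays of different groups at 0.983 to 0.985. The number of arrays limits the precision. Of 12 colon epithelium markers, KRT8, KRT18, KRT19 and EPCAM were among the brightest 3% of genes in both groups, and VIL1, LGALS4, CDH17 and TSPAN8 had a mean over all 6 arrays below the offset of 16. KRT18 and KRT8 rose, and CDH1 and EPCAM fell. Summed over each list, fibroblast markers reached at most 398, blood cell markers 169 and muscle markers 234, while the epithelial list summed to 23290 to 24160 in control arrays and 28020 to 28180 in NFX1-91 shRNA arrays. The part of the epithelial shift in the results below was not tested.

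NFX1, the target of the hairpin, had 3 probe sets, and which splice form each detects was not tested. The brightest NFX1 probe set read 160, 144 and 139 in control arrays and 124, 139 and 138 in NFX1-91 shRNA arrays, and the middle one 81.7, 90.2 and 70.1 against 78.5, 81.0 and 69.3. Groups overlapped for both (exact two-sided permutation p = 0.2 and 0.5). The dimmest read 16.8, 17.7 and 24.4 against 8.87, 8.83 and 4.56, with no overlap and an exact p = 0.1, the smallest that 3 against 3 arrays allow. It alone passed limma's threshold over all probe sets (log2 fold change -0.60, SE 0.143, adjusted p = 0.0137).

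The respiratory genes did not move as a block. Of the 72 genes 13 rose, 26 fell and 33 did not pass, that is 18.1% and 36.1%, where 14.7% of all genes tested were called higher and 17.8% lower. The members are bright, at a median percentile of 95.4, and bright genes are called more often here: among the 773 genes in the members' middle range of brightness, 32.1% were higher and 27.2% lower. The median log2 fold change was -0.0015 for the members and 0.0036 for all genes. The median size of change, regardless of direction, was 0.14 for the members and 0.18 for all genes.

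Among all 72 genes, 16 were lower by more than 1.2-fold and 4 higher, and of those 4 only COX7A2L and NDUFS1 passed the test. The share of all genes beyond 1.2-fold was not counted, so these counts cannot be read as particular to the members. The quartiles of the log2 fold change over all genes were -0.19 and 0.18. Without overlap between the groups, 21 genes read higher and 27 lower, which is 29.2% and 37.5% of the members, beside 20.6% and 22.9% of all genes. The count of small rises depended on the processing: centring each array on its median gave 16 higher and 20 lower, and over all alternatives the higher count ran from 3 to 24 and the lower one from 18 to 28. In all 17 alternatives 18 calls held, those of 3 risers (COX7A2L, NDUFS1 and COX4I1) and of 15 genes that fell.

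**Figure D1:**
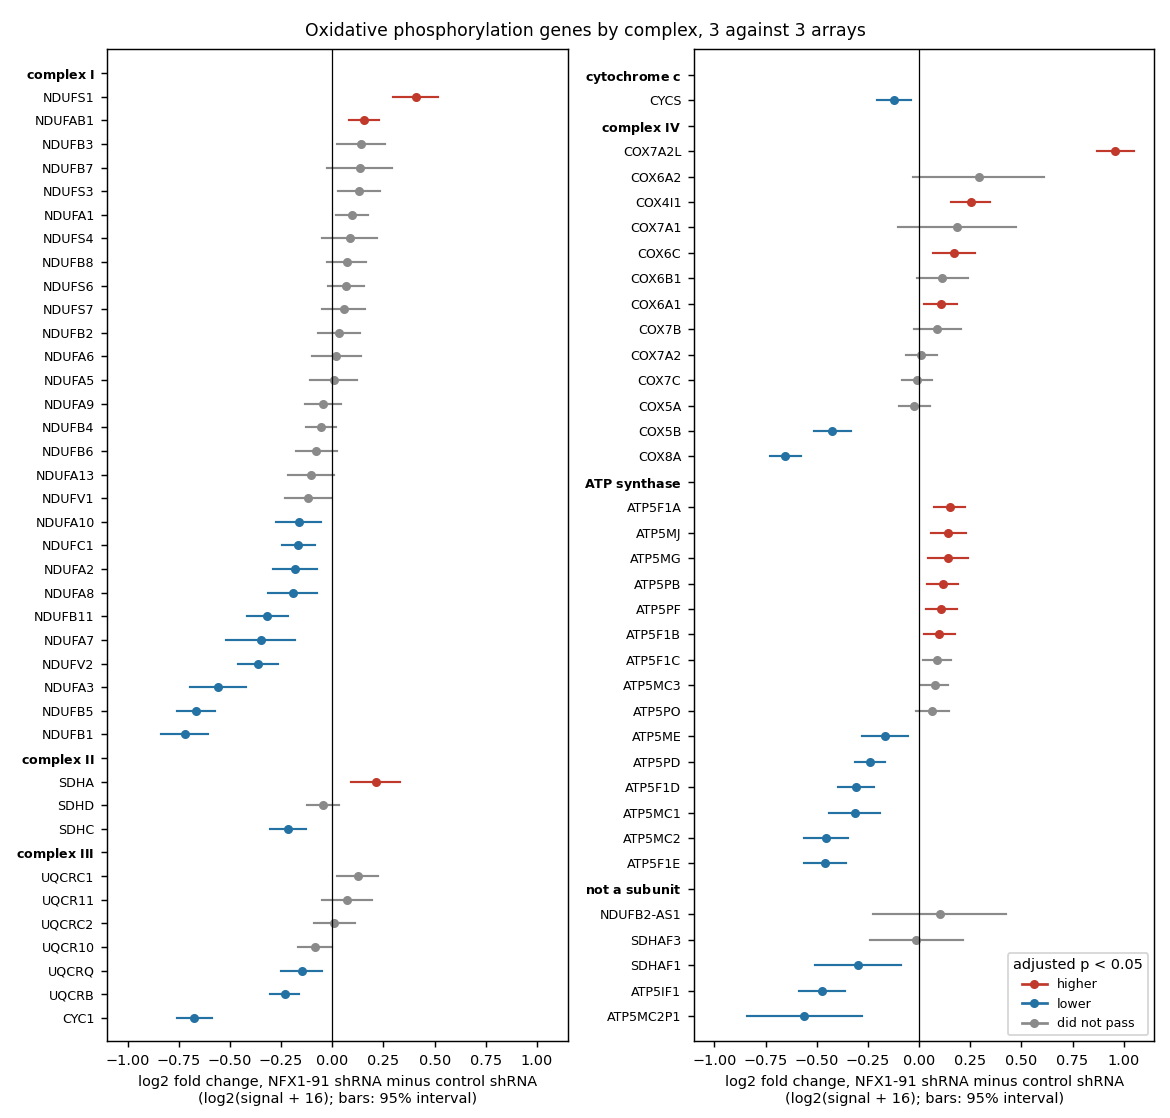
Log2 fold change of each oxidative phosphorylation gene with its 95% interval, grouped by complex (x axis: NFX1-91 shRNA minus control shRNA on the log2(signal + 16) scale). COX7A2L lies farthest to the right at 0.96 and NDUFB1 farthest to the left at -0.72, and every complex with more than 1 gene has members on both sides of 0.

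The promoters of the genes with the largest changes are shown because these genes set the range of the module. RefSeq promoter windows on GRCh38.p14, from 250 bases before to 50 after a transcription start, were found for 62 of the 72 genes, in 75 windows. Below are the 150 bases just before the start, in the gene's own direction, for the 2 largest rises and the 3 largest falls among called genes with a window. CYC1, NDUFB5 and ATP5MC2P1 had none in the table. COX7A2L has 2 starts, both shown, and of 2 starts of NDUFS1 the more upstream one is shown. Capitals mark a match to a motif named in the next paragraph, on either strand.
COX7A2L upstream start, chr2:42368958-42369107, minus strand: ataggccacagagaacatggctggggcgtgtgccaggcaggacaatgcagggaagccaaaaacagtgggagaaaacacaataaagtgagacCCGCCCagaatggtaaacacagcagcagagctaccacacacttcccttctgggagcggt
COX7A2L downstream start, chr2:42361218-42361367, minus strand: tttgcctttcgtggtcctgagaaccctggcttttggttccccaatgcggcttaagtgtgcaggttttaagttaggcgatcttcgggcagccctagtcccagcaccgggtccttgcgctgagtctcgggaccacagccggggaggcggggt
NDUFS1, chr2:206159445-206159594, minus strand: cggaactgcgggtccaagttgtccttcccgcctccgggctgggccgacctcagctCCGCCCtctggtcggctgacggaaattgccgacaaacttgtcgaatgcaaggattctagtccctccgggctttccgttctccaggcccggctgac
NDUFB1, chr14:92121707-92121856, minus strand: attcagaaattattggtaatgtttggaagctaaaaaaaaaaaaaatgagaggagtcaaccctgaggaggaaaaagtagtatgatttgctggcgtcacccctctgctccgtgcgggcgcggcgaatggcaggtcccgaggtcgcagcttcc
COX8A, chr11:63974470-63974619, plus strand: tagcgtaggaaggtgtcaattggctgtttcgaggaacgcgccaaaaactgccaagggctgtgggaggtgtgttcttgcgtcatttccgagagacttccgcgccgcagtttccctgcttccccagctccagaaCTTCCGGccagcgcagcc
NDUFA3, chr19:54102705-54102854, plus strand: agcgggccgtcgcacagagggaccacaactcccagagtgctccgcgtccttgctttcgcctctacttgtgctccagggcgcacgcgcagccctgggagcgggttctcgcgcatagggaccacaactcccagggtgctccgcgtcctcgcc

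The letters searched, on both strands of the whole 300-base windows, were GCGCATGCG for NRF1, CCGGAAG for GABPA and other ETS factors, AAGATGGCG for YY1, GGGCGG for SP1 and its relatives (the GC box), TGACGTCA for CREB and ATF1, and CACGTG for MYC and USF (the E-box). NRF1 and GABPA are known activators of respiratory genes. Of the members' 75 windows 11 held the NRF1 letters (14.7%), against 1.92% of all 35116 windows. The ETS letters were in 20 (26.7% against 10.3%), those of YY1 in 9 (against 1.75% of all), and the GC box in 48 (against 45.0% of all). For CREB the shares were 5.33% and 1.85%, and for the E-box 9.33% and 7.26%. Split by call, the ETS letters stood in 7 of 15 windows of genes that rose, 5 of 25 of genes that fell and 8 of 35 of the others, and the NRF1 letters in 2, 3 and 6. A gene with several starts counts more than once here, and its windows can overlap. In the windows printed in part above, the COX8A match in capitals is the ETS letters, 18 bases before the start, and those of NDUFS1 and of the upstream COX7A2L start are GC boxes. Outside the printed part lie ETS letters of NDUFS1 and a GC box each of COX8A and the downstream COX7A2L start. The windows of NDUFB1 and NDUFA3 held none of the letters searched.

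Complex I, the NADH dehydrogenase, had 2 of 28 genes higher and 10 lower, with a median log2 fold change of -0.050. These are 7.14% and 35.7%, beside 14.7% higher and 17.8% lower among all genes. Among the similarly bright genes, those in the members' middle range of brightness (mean signal 1658 to 4308), the shares were 32.1% and 27.2%. Counts for the other complexes below stand beside the same shares. That range was set over all members and was not matched to each complex. The median brightness percentile was 92.8 for complex I, 97 for complex III, 97.6 for complex IV and 98.1 for ATP synthase. Among the core subunits of complex I, which carry the flavin and the iron-sulfur clusters, 5 were in this comparison and the directions were mixed. NDUFS1, the largest iron-sulfur subunit, read 816, 865 and 833 in control arrays and 1078, 1125 and 1146 in NFX1-91 shRNA arrays. Each NFX1-91 shRNA array exceeded each control array, a rise of 33.2% (log2 fold change 0.41, SE 0.048, adjusted p = 0.000142). NDUFV2, an iron-sulfur subunit beside the NADH site, read 2365, 2301 and 2309 against 1717, 1803 and 1890. It fell by 22.4% without overlap (log2 fold change -0.36, SE 0.044, adjusted p = 0.000154). These parts of the same module were called in opposite directions.

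The other core subunits in this comparison did not pass. NDUFS8, a further core subunit, was outside it because its probe sets are listed with more than 1 symbol. Both of them were called lower in the fit over all probe sets (-1.13 and -1.20). These falls exceed that of NDUFV2 and are given with the flagged results below. NDUFV1, which binds the flavin, read 1884, 1701 and 1803 against 1727, 1631 and 1600, and the groups overlapped (-0.12, 95% interval -0.23 to -0.0063). NDUFS3, of the quinone module, read 2374, 2177 and 2138 against 2486, 2389 and 2443, without overlap (0.13, interval 0.027 to 0.23, adjusted p = 0.0565). NDUFS7, which holds the last cluster before ubiquinone, read 943, 890 and 916 against 930, 974 and 954 with overlapping groups.

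Accessory subunits of the membrane arm, which embeds the proton pumps, had 7 of 15 lower and 0 higher (median -0.11). The share lower was 46.7%, beside 17.8% of all genes and 27.2% of the similarly bright ones. NDUFB1 read 2374, 2300 and 2325 in control arrays against 1327, 1383 and 1520, and fell by 39.6% (log2 fold change -0.72, SE 0.052, adjusted p = 8.09e-06). NDUFB5 read 2520, 2680 and 2575 against 1598, 1604 and 1679 and fell by 37.2% (-0.67, SE 0.041, adjusted p = 3.21e-06). For both the highest NFX1-91 shRNA array lay far below the lowest control array. NDUFA3 read 1372, 1215 and 1241 against 821, 851 and 913 (-0.56, SE 0.061, adjusted p = 8.65e-05). NDUFB11 (1673, 1681 and 1666 against 1272, 1353 and 1392; -0.32), NDUFA8 (-0.19), NDUFC1 (-0.17) and NDUFA10 (-0.16) fell by less. NDUFA8 was not called without control array 3 or NFX1-91 shRNA array 1 or 2, and NDUFA10 not without any array except control array 3. Values for the 8 that did not pass ran from -0.11 for NDUFA13 through NDUFB6, NDUFB4, NDUFB2, NDUFB8, NDUFA1 and NDUFB7 to 0.14 for NDUFB3.

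In the matrix arm, which reaches from the membrane to the NADH site, 2 of 7 accessory subunits fell and 0 rose. The share lower, 28.6%, was near the 27.2% of the similarly bright genes. NDUFA7 read 747, 733 and 701 against 531, 537 and 638, and fell by 21.8% (-0.35, SE 0.074, adjusted p = 0.00488), and NDUFA2 fell by 0.18. NDUFA2 was not called without control array 2 or NFX1-91 shRNA array 1 or 2. With the shared probe sets left out, a probe set below the offset takes its place, with a log2 fold change of similar size (-0.21) and an adjusted p of 0.379. NDUFS4, NDUFS6, NDUFA5, NDUFA6 and NDUFA9 had values between -0.046 and 0.084. For NDUFA6 the choice of probe set decided the outcome: the bright one used here did not pass, with means of 2545 and 2574, whereas the dimmer one went from a mean of 296 to 187 (-0.63, adjusted p = 0.00145 over probe sets). NDUFAB1, the mitochondrial acyl carrier protein, which also serves lipoic acid synthesis, was the other gene of complex I that rose. It read 5164, 5033 and 4857 against 5584, 5524 and 5652 (0.15, SE 0.033, adjusted p = 0.00482).

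**Figure D2:**
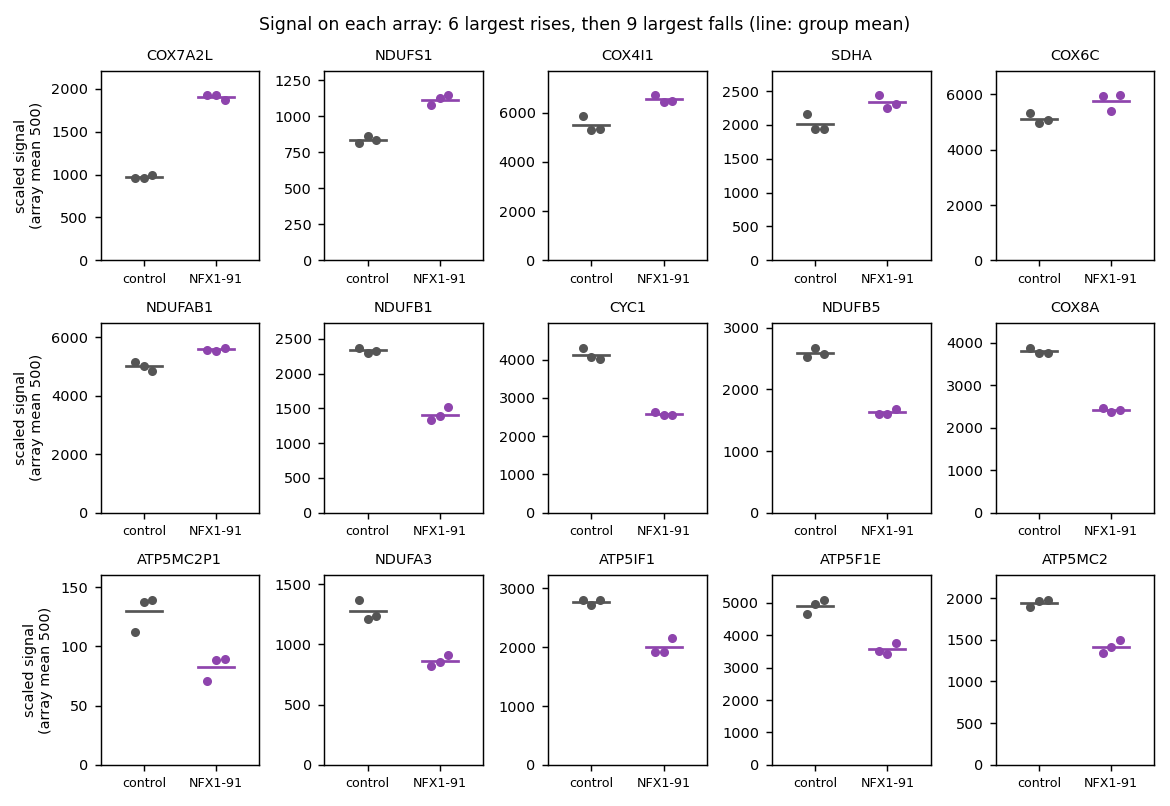
Scaled signal on each array (y axis from 0, array mean 500) for the 6 largest rises and then the 9 largest falls among genes that passed the test, with a line at each group mean. COX7A2L sits at 954 to 997 in control arrays and at 1872 to 1922 in NFX1-91 shRNA arrays, and in none of the 15 genes do the groups overlap.

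Complex II, succinate dehydrogenase, is also an enzyme of the citric acid cycle, and its 3 measured subunits gave 1 rise, 1 fall and 1 value near 0. SDHA, the flavoprotein that oxidises succinate, read 2165, 1946 and 1932 against 2436, 2250 and 2314 and rose by 15.8% (0.21, SE 0.053, adjusted p = 0.0116). Its probe set is of a kind that can cross-hybridise, and the call was lost without control array 2 or NFX1-91 shRNA array 1, with an adjusted p of up to 0.0745 over the alternatives. SDHC, a membrane anchor, read 1615, 1669 and 1643 against 1423, 1403 and 1407 and fell by 14.1% (-0.22, SE 0.038, adjusted p = 0.00179). All 4 SDHC probe sets read lower in NFX1-91 shRNA arrays, and 2 of them were called. SDHD, the other anchor, read 2830, 2909 and 2911 against 2732, 2805 and 2852, with overlap (-0.044, interval -0.12 to 0.034). The assembly factor SDHAF1 fell by 0.30 (SE 0.093, adjusted p = 0.0339) but was not called without control array 1 or 3 or NFX1-91 shRNA array 1 or 2, and SDHAF3 had a value of -0.015.

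Complex III, the cytochrome bc1 complex, had 0 of 7 genes higher and 3 lower (median -0.085). The share lower was 42.9%, beside 17.8% of all genes and 27.2% of the similarly bright ones. CYC1, the haem-bearing cytochrome c1 that reduces cytochrome c, read 4315, 4058 and 4013 in control arrays and 2625, 2563 and 2546 in NFX1-91 shRNA arrays. It fell by 37.6% (log2 fold change -0.68, SE 0.038, adjusted p = 1.93e-06), with every NFX1-91 shRNA array far below the control arrays. UQCRB, which lies by the quinone site, fell by 0.23 (SE 0.031, adjusted p = 0.000305) and UQCRQ by 0.15, the latter not called without control array 1 or 2 or NFX1-91 shRNA array 1 or 2. A second bright UQCRB probe set was also called lower, and a dim one read 0.07. The so-called core proteins UQCRC1 (0.12, adjusted p = 0.0596) and UQCRC2 (0.0096) did not pass, nor did the small subunits UQCR10 (-0.085) and UQCR11 (0.072).

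CYCS, cytochrome c, the mobile carrier between complexes III and IV and a trigger of apoptosis when released, read 6492, 6959 and 6697 against 6334, 5937 and 6217. The groups did not overlap, though only narrowly, and CYCS fell by 8.24% (-0.12, SE 0.037, adjusted p = 0.0277). It was not called without control array 2 or 3 or NFX1-91 shRNA array 2 or 3, and its adjusted p ran up to 0.192 over the alternatives.

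Complex IV, cytochrome c oxidase, held both the largest rise and one of the larger falls. Of its 13 genes 4 were higher and 2 lower (median 0.11), or 30.8% and 15.4%, beside 32.1% and 27.2% of the similarly bright genes. Several of its genes, such as COX4I1 and COX7C, were brighter than that range, and COX6A2 and COX7A1 were dimmer. The median was 0.049 over its 10 common subunits alone, and 0.064 over all 13 without control array 2, where that of ATP synthase was 0.069. COX7A2L, a relative of subunit 7A that joins complex III to complex IV in supercomplexes, read 963, 954 and 997 in control arrays and 1921, 1922 and 1872 in NFX1-91 shRNA arrays. That is a 1.96-fold difference between means of 972 ± 22.8 and 1905 ± 28.5 (SD, n = 3 arrays per group), with a log2 fold change of 0.96 (SE 0.041, limma adjusted p = 4.8e-07). All 3 NFX1-91 shRNA arrays lay far above the control arrays, and its only probe set gave 0.93 to 0.99 over the alternatives. COX7A2, the subunit whose place it resembles, did not pass (0.010, interval -0.065 to 0.086).

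Among the 10 commonly expressed subunits of complex IV 3 rose and 2 fell. COX4I1, the common form of subunit 4, read 5851, 5301 and 5323 against 6697, 6427 and 6486 and rose by 19.0% (0.25, SE 0.042, adjusted p = 0.00119). Its other 2 probe sets were called higher too. COX6C read 5314, 4952 and 5064 against 5948, 5382 and 5964 (0.17, adjusted p = 0.0162), and COX6A1 read 4517, 4566 and 4539 against 4888, 4694 and 5083 (0.11, adjusted p = 0.0465). COX6C and COX6A1 were above every control array, but the rises were small: COX6C was not called without control array 2 or 3 or NFX1-91 shRNA array 1 or 3, and COX6A1 without any of 5 of the 6 arrays, the exception being NFX1-91 shRNA array 2.

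Among the common subunits, both falls were larger than the 3 rises. COX8A, the common form of subunit 8, read 3883, 3759 and 3755 against 2453, 2366 and 2411, and fell by 36.6% (-0.65, SE 0.034, adjusted p = 1.32e-06). COX5B, which binds zinc on the matrix side, read 3443, 3460 and 3503 against 2520, 2503 and 2729 and fell by 25.5% (-0.42, SE 0.041, adjusted p = 4.09e-05). Its 3 bright probe sets were all called lower, while a dim one, at the 25.2th percentile, read -0.11 and did not pass. COX5A, COX6B1, COX7A2, COX7B and COX7C lay between -0.024 and 0.11 and did not pass. COX6A2 and COX7A1, the heart and muscle forms, were dim: COX6A2 read 11.7 to 21.0 in control arrays and 22.1 to 23.5 in NFX1-91 shRNA arrays, COX7A1 0.777 to 1.46 and 1.48 to 5.05, and neither passed. COX7A1 lay below the offset, and COX6A2 little above it.

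**Figure D3:**
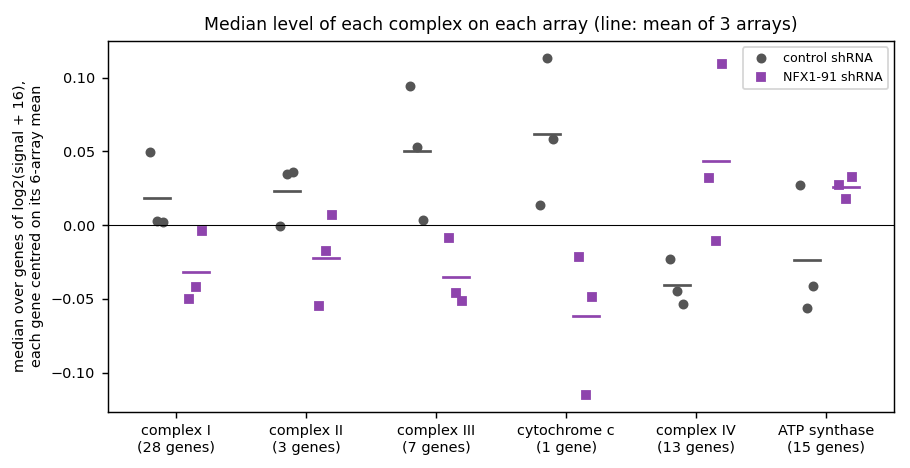
Median over the genes of each complex on each array (y axis: log2(signal + 16), each gene centred on its mean over 6 arrays), with lines at the means of 3 arrays. The median log2 fold changes lie between -0.085 for complex III and 0.11 for complex IV (0.049 over its 10 common subunits), beside single genes at -0.72 and 0.96.

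ATP synthase was split evenly, with 6 of 15 genes higher, 6 lower and 3 that did not pass (median 0.077). Each share was 40%, beside 32.1% higher and 27.2% lower among the similarly bright genes. Several genes of ATP synthase, such as ATP5F1A, ATP5F1B and ATP5MC3, were brighter than that range, so these shares are not matched to it in brightness. ATP5F1B, the smallest rise, was up by 7.14%, and ATP5F1E, the largest drop, fell by 27.4%. In the catalytic F1 head the large alpha and beta subunits rose: ATP5F1A read 6768, 6614 and 6384 against 7533, 7169 and 7232 (0.15, SE 0.034, adjusted p = 0.00662), and ATP5F1B read 6120, 5865 and 5892 against 6472, 6501 and 6179 (0.099, SE 0.033, adjusted p = 0.0447). ATP5F1C, the gamma subunit that turns inside the head, read 4455, 4567 and 4521 against 4704, 4857 and 4823, without overlap but with an adjusted p = 0.0551, and 2 of its other probe sets were called higher.

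The 2 small subunits at the foot of the central stalk fell. ATP5F1E, the epsilon subunit, read 4672, 4976 and 5099 against 3508, 3436 and 3765 (-0.46, SE 0.046, adjusted p = 4.94e-05). ATP5F1D, the delta subunit, read 2491, 2638 and 2666 against 2109, 2052 and 2127 (-0.31, SE 0.040, adjusted p = 0.000257), and its second probe set was also called lower. Every control array lay above every NFX1-91 shRNA array for both. Members of the same F1 head were thus called in both directions.

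In the rotating c ring the 3 genes encode the same mature protein with different import sequences. ATP5MC2 read 1890, 1964 and 1981 against 1345, 1412 and 1494 and fell by 27.1% (-0.45, SE 0.048, adjusted p = 7.04e-05), and ATP5MC1 fell by 19.8% (-0.32, SE 0.055, adjusted p = 0.00167). ATP5MC3 had a value of 0.077 (interval 0.012 to 0.14, adjusted p = 0.072). The ATP5MC2 call rests on 1 of 2 probe sets, the other reading -0.11 with an adjusted p = 0.673 when shared probe sets were left out. The pseudogene ATP5MC2P1, a copy of ATP5MC2, read 112, 138 and 139 against 70.4, 88.6 and 89.3 and fell by 0.56 (SE 0.125, adjusted p = 0.00644). Whether its probes detect ATP5MC2 transcripts was not tested.

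The peripheral stalk, which holds the head still, had ATP5PB (5680, 5413 and 5626 against 6116, 5844 and 6152; 0.12) and ATP5PF (3311, 3216 and 3341 against 3481, 3525 and 3644; 0.11) higher. ATP5PD fell by 15.3% (-0.24, SE 0.033, adjusted p = 4e-04), and ATP5PO, the oligomycin sensitivity protein, had a value of 0.065. Of the small membrane subunits, ATP5MG (4538, 4115 and 4091 against 4719, 4571 and 4737; 0.14) and ATP5MJ (4422, 4130 and 4201 against 4811, 4522 and 4757; 0.14) rose, and ATP5ME fell by 0.17 (adjusted p = 0.0304), a call lost without any array except NFX1-91 shRNA array 3. These rises were narrow in that the lowest NFX1-91 shRNA array exceeded the highest control array by little. For ATP5MG the direction depended on the probe set: its 3 shared probe sets read 0.14 to 0.15, and the remaining one -0.11. ATP5IF1, which blocks ATP hydrolysis by the synthase when respiration fails, read 2799, 2721 and 2808 against 1921, 1917 and 2155. It fell by 28.0% (-0.47, SE 0.050, adjusted p = 6.86e-05), with every NFX1-91 shRNA array below the control arrays.

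Several small rises in ATP synthase were not called once an array was left out, which leaves 3 arrays against 2. Leaving out control array 2, control array 3 or NFX1-91 shRNA array 1 ended the calls of ATP5F1B, ATP5MG and ATP5MJ. Without NFX1-91 shRNA array 2 those of ATP5F1B, ATP5MG and ATP5PF ended, and without NFX1-91 shRNA array 3 those of ATP5MG, ATP5MJ, ATP5PB and ATP5PF. ATP5PB was also lost without control array 2 or NFX1-91 shRNA array 1, and ATP5PF without control array 2 or 3. Over all 72 genes the count of rises was 5 without control array 2, 7 without control array 3, NFX1-91 shRNA array 1 or NFX1-91 shRNA array 3, 10 without NFX1-91 shRNA array 2 and 20 without control array 1. In the same order, 11.2%, 12.2%, 13.2%, 12.2%, 10.6% and 15.4% of all genes were called higher, beside 14.7% with all 6 arrays. The falls of ATP5F1E, ATP5F1D, ATP5MC1, ATP5PD and ATP5IF1 were called in each of the 17 alternatives.

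More than 1 probe set was present for 22 of the 72 genes. In a fit over all probe sets the brightest was called for 10 of them. A second probe set passed in that direction for 7 of the 10, and in the other direction for 0. Shared probe sets (_s_at and _x_at), which can detect related transcripts, read 37 of the 72 genes. Across the 72 genes the log2 fold change had a Spearman rho of 0.217 with genomic gene length and 0.194 with brightness, as a description over genes that share the same 6 arrays.

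Genes that build or feed the chain moved in both directions as well. Of 12 measured complex I assembly factors 3 rose and 5 fell, where 14.7% of all genes were called higher and 17.8% lower. NDUFAF3, which acts early in the quinone module, read 685, 594 and 589 against 300, 332 and 375 (-0.86, adjusted p = 6.87e-05), and NUBPL, which inserts iron-sulfur clusters, fell by 0.84. DMAC2 fell by 0.43, and NDUFAF4, a partner of NDUFAF3, rose by 0.43 (adjusted p = 5.54e-05). The pair NDUFAF3 and NDUFAF4 were thus called in opposite directions. Of 22 assembly factors for the other complexes, SDHAF1 and SDHAF3 included, 6 rose and 8 fell, beside the same shares of all genes. SURF1, a complex IV factor and Leigh syndrome gene, read 1660, 1529 and 1503 against 883, 844 and 970 (-0.79, adjusted p = 1.24e-05), COA3 fell by 0.82, COA7 by 0.63, and the complex III factor TTC19 by 0.58.

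Among 18 regulators of mitochondrial biogenesis and mitochondrial DNA, 2 rose and 7 fell. This count and those of the next lists stand beside the same shares, 14.7% and 17.8% over all genes. ESRRA, a nuclear receptor that activates respiratory genes, read 376, 407 and 421 against 222, 257 and 256 (-0.68, adjusted p = 0.000147). POLG, the mitochondrial DNA polymerase, fell by 0.67, TFAM, which packages mitochondrial DNA and starts its transcription, by 0.32 (adjusted p = 0.000666), and YY1 by 0.32 (adjusted p = 6.31e-05). NRF1 itself had a value of 0.017 and GABPA one of 0.085, and neither passed. Of 12 citric acid cycle genes 6 rose and 3 fell, with IDH3A, the catalytic subunit of isocitrate dehydrogenase, at 0.49 (adjusted p = 0.000694), DLST at 0.30, OGDH at -0.73 (adjusted p = 6.57e-05) and SUCLG2 at -0.42. OGDH and DLST, which belong to the same enzyme complex, were called in opposite directions. Of 7 genes for other electron entry points only ETFB passed, falling by 0.34. Of 6 carriers and channels that move ATP and phosphate, 5 rose and 0 fell. VDAC2 rose by 0.20, VDAC3 by 0.17, VDAC1 by 0.17, the phosphate carrier SLC25A3 by 0.11 and the ADP/ATP carrier SLC25A4 by 0.16. SLC25A5, another ADP/ATP carrier, had a value of -0.098 and did not pass. These genes are bright, at percentiles from 82.7 to 99.4. Among the genes in the members' middle range of brightness, 32.1% were higher. No gene of the mitochondrial genome was among the genes analysed here.

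**Figure D4:**
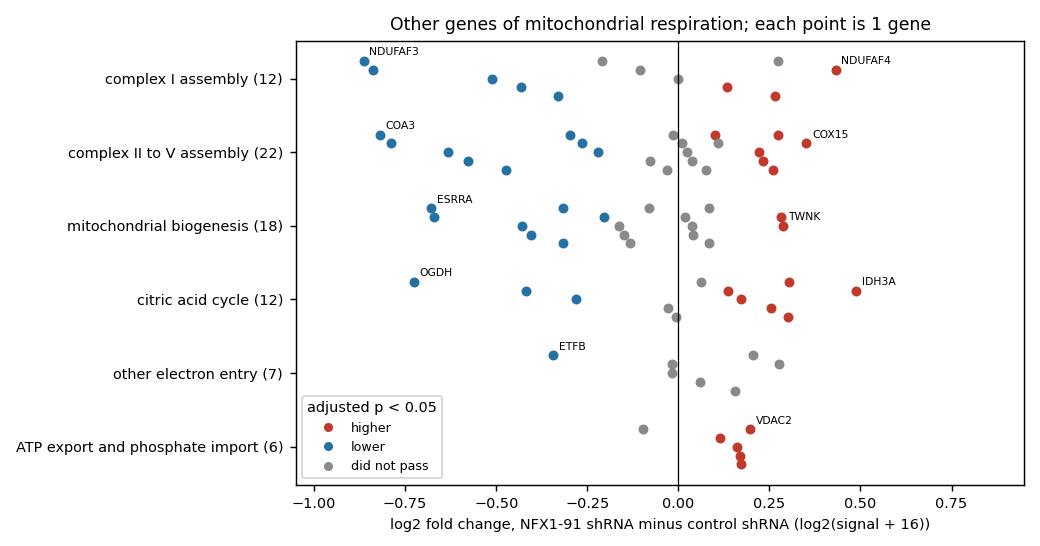
Log2 fold change of 77 genes that assemble, regulate or feed the respiratory chain, in 6 lists (x axis: NFX1-91 shRNA minus control shRNA, each point 1 gene, number measured in parentheses). Assembly factors reach from NDUFAF3 at -0.86 to NDUFAF4 at 0.43, and 5 of 6 genes for ATP export and phosphate import lie to the right of 0.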

How the data were processed

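Biotin-labelled cRNA from total RNA was measured on Affymetrix arrays, per the labels' protocols. The authors deposited intensity values on a linear scale that sum to 1 on each array, and their probe summary and scaling are not given in the sources used here. Groups and replicate numbers come from the sample titles. All arrays were multiplied by a common factor to a mean of 500, and log2(signal + 16) was taken. The design had named this mean and offset. Names came from the platform's annotation, which gives 19064 probe sets 1 gene, 1043 several and 2108 none. Each gene kept its brightest single-gene probe set.

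The comparison over 11963 genes used R 4.3.3 and limma 3.58.1: a linear model without pairing, eBayes with a trend, and two-sided tests adjusted by Benjamini-Hochberg. Scripts were tested on simulated data. Figures used Python 3.11.15 and matplotlib 3.10.9. Values on each array are given for up to 12 called rises and 12 called falls of largest size, and for core subunits of complexes I and II, CYC1, CYCS and the F1 head. In other lists the 4 genes with the smallest adjusted p are named. GABPA, NRF1, SLC25A4, SLC25A5 and genes that moved against a partner were named after their values were seen. The members and lists were chosen with earlier results of these data known.

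The alternatives changed the scaling (quantile normalization or median centring), the offset (1 or 64), the genes tested (dim ones left out), the probe sets (their mean, or shared ones left out), the model (no variance trend, array weights, or a replicate block), the arrays (each left out in turn) and the threshold (0.01).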

Additional observations from a re-analysis of the deposited data

Results flagged for a closer look

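Some probe sets of oxidative phosphorylation genes are listed with more than 1 symbol and were therefore outside the comparison. Of 7 such probe sets, 2 were called higher and 2 lower by limma over all probe sets, and those 4 carry a signal that the gene comparison leaves unused. Both lower ones read NDUFS8, an iron-sulfur core subunit of complex I, and are listed with the microRNA genes MIR4691 and MIR7113. The brighter read 1847, 1864 and 1773 in control arrays against 760, 802 and 922 in NFX1-91 shRNA arrays (log2 fold change -1.13, SE 0.070, adjusted p = 1.49e-05). The other read 1256, 1188 and 1219 against 515, 480 and 570 (-1.20, SE 0.067, adjusted p = 9.32e-06). Both falls are larger than that of NDUFB1, the largest among the 72 genes. The probe set of NDUFC2, an accessory subunit of complex I, listed with a readthrough gene, rose by 0.18 (adjusted p = 0.00898). A probe set of the SDHA pseudogenes SDHAP1 and SDHAP2 rose by 0.24 (adjusted p = 0.00428), beside the rise of SDHA itself. Which transcript these probe sets detect was not tested.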

How the results depend on the processing

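Of 1221 member values under the 17 alternatives, 1037 kept direction and call, 114 lost a call, 39 gained one, 27 changed sign without a call, and 4 reversed. The 4 were ATP5MG (-0.11) and UQCRB (0.074) with shared probe sets left out, and NDUFA6 there (-0.63) and by the mean of probe sets (-0.30). Both settings read a gene by another probe set or by the mean of its probe sets. No member was called in opposite directions by the main fit and an alternative. Why the probe sets of a gene differ was not tested. The lower count, 26, stayed within 1.5 times under each alternative. The higher count, 13, became 8 with quantile normalization, 3 without a variance trend, 24 with array weights and 5 at a threshold of 0.01. In the same order, 16.2%, 12.3%, 20.2% and 9.5% of all genes were called higher. The member count ran from 5 (without control array 2) to 20 (without control array 1), beside 11.2% and 15.4% of all genes. Median log2 fold changes moved for complex I (-0.021) and complex II (-0.015) with median centring, for complex II (0.016) with the mean of probe sets, and for complex III (0.0050) with shared probe sets left out. Shifts of over 1.5 times, within the spread between replicates, were those of complex IV from 0.11 to 0.064 without control array 2, complex II from -0.044 to -0.028 without NFX1-91 shRNA array 1, ATP synthase from 0.077 to 0.047 with quantile normalization, and complex III from -0.085 to -0.056 with median centring. Whether same-numbered arrays were processed together is not in the labels, and the main fit did not pair them. Their deviations from the group means correlated at -0.0284, 0.0805 and -0.0212. With the replicate block 13 members were higher and 26 lower, COX6A1 losing its call and NDUFS3 gaining one. From 24.1% to 25.9% of an array's probe sets lay below the offset, where folds are compressed, COX7A1 among them.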
